A study of Mus musculus with 13 samples.

Results

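The long terminal repeats (LTRs) of intracisternal A particle (IAP) elements were followed as sources of small RNAs through male germ cell development in the mouse. The tables of small RNAs list 262 retrotransposon consensus sequences, and the IAP LTRs are the 9 of them whose name starts with IAPLTR and does not contain -int. These are IAPLTR1_Mm, IAPLTR1a_Mm, IAPLTR2_Mm, IAPLTR2a, IAPLTR2a2_Mm, IAPLTR2b, IAPLTR3, IAPLTR4 and IAPLTR4_I. The last one is an internal region by its name, and it is given apart. Cells came from C57BL6/J mice aged 3 to 4 weeks and were sorted by flow cytometry after staining with Hoechst-33342, a DNA dye. The first set had single 50-bp libraries: 1 of spermatogonia (SG), 2 of leptotene/zygotene spermatocytes (LZ), 1 of pachytene/diplotene spermatocytes (PD) and 1 of round spermatids (RS). The second set, with technical replicates, had 2 biological samples of spermatogonia (SG_T) and 2 of leptotene/zygotene spermatocytes (LZ_T), sequenced both as 50-bp and as 100-bp reads. The labels are silent on genotype. The header cells of the tables of the second set name a knockout of Pld6, a mitochondrial protein needed to make piRNAs, and both wild-type and such mutant cells were profiled in the study. Genotype as these headers name it, set, run and depth cannot be told apart between the sets.

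IAP elements are LTR retrotransposons that still move in the mouse genome. An intact copy carries an LTR at each end, and the 5′ LTR holds the promoter that drives its transcription. PIWI-interacting RNAs (piRNAs) are the small RNAs that guide PIWI proteins of germ cells to transposon transcripts, and they are taken here as reads of 24-33 nt. Primary piRNAs tend to start with U. In the ping-pong cycle, a PIWI protein guided by one piRNA cuts a transcript of the other strand 10 nt from the guide's 5′ end, so that the new piRNA overlaps its guide by 10 nt and tends to carry A at position 10. At meiosis, a second population of longer piRNAs is produced from long noncoding transcripts.

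Total reads per biological sample ranged from 1810805 (SG_T replicate 2) to 29956080 (LZ replicate 1). The list of SG sequences with read counts held 1 line without a count and may be incomplete. The SG total and all SG values counted from single reads, miRNAs among them, rest on that list. Both miRNAs used as markers of meiotic and later germ cells followed the labelled stages. In the first set, miR-449a-5p was at 5.57 RPM, the reads per 1e6 reads of the library, in SG, 24.1 and 36.1 RPM in the LZ replicates, and 92.9 and 161 RPM in PD and RS. In the second set it was at 6.61 and 1.66 RPM in SG_T and at 15.7 and 13.8 RPM in LZ_T. The other of the pair, miR-34b-5p, ranged from 0.376 RPM in SG to 37.4 RPM in RS, was not found in SG_T, and was at 0.803 and 1.30 RPM in LZ_T. The endothelial miR-126a-3p, a somatic marker, was at 3.76 to 204 RPM in the first set and at 597 to 1229 RPM in the second.

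The most frequent small RNAs that match an IAPLTR1 stretch are shown first, because later paragraphs refer to them. The stretch is the 263 bases, with 11 CpG sites, that the study amplified to read LTR methylation, with converted cytosines restored. Reads of 24-33 nt were placed on it whole with up to 2 mismatches, and positions count from 1 at its left end. A capital letter marks position 1 of the read, where U (written T) is typical of primary piRNAs, and position 10, where A is typical of ping-pong products. The 3 sense sequences with the highest mean RPM share a 5′ end at position 16 of the stretch:
sense 1: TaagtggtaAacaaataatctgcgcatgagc
sense 2: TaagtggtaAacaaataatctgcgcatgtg
sense 3: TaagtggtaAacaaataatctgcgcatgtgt
The 3 antisense sequences with the highest mean RPM share a 5′ end at position 137:
antisense 1: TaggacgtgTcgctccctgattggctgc
antisense 2: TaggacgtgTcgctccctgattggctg
antisense 3: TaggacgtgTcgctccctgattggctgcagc
All 3 sense sequences carry both U at position 1 and A at position 10, whereas the antisense ones carry U at both positions. The antisense sequences differ only in where their 3′ end lies, at 28, 27 and 31 nt. Sense 2 matches the stretch exactly, and each of the other printed sequences has 1 mismatch to it.

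To follow the LTRs over development, the RPM of 24-33 nt reads of the 9 members were added up in each library of the first set. Per library the sum came to 897 RPM for SG, 1710.25 and 1829 RPM for the LZ replicates, 2219.6 RPM for PD and 224 RPM for RS. The LZ samples lay above SG, PD lay above both LZ samples, and RS was the lowest. SG, PD and RS are single libraries, so these differences were not tested, and in bulk samples fewer cells of a type cannot be told apart from less RNA per cell. With RPM rescaled to all reads of 24-33 nt, PD lay below LZ (log2 ratio -0.68, against 0.33 in RPM). Sense RPM was 520 in SG, 415 and 668 in the LZ pair, 111 in PD and 35.8 in RS, while antisense RPM was 377 in SG, 1295 and 1161 in the LZ pair, 2109 in PD and 189 in RS. From the LZ mean to PD, sense RPM was 4.90-fold lower and antisense RPM 1.72-fold higher, whereas from PD to RS both were lower, by 3.09-fold and 11.2-fold.

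The antisense share of the summed RPM was accordingly 42.0% in SG, 75.7% and 63.5% in the LZ pair, 95.02% in PD and 84.1% in RS. The 95% Wilson intervals, which cover counting error only, were 41.1 to 42.9% in SG and 94.8 to 95.3% in PD. Against all listed retrotransposons, the 9 members made up 2.73% of RPM in SG, 7.74% and 4.85% in the LZ pair, 14.6% in PD and 3.43% in RS.

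IAPLTR2b made up most of the difference in antisense RPM between SG and PD. RPM values are not divided by the length of a consensus sequence, so each member is compared with itself across samples. Its antisense RPM was 79.3 in SG, 841 and 530 in the LZ pair, 1633 in PD and 115 in RS. This was an 8.64-fold difference from SG to the LZ mean, a further 2.38-fold difference to PD, and a 14.2-fold lower value in RS. Its sense RPM was 26.5 in SG, between the LZ replicates (19.7 and 39.0), and it was 8.86 in PD and 4.10 in RS. IAPLTR2b made up 11.8% of the members' RPM in SG, 50.3% and 31.1% in the LZ pair, 74.0% in PD and 53.0% in RS. Without IAPLTR2b, the sum of the other 8 members differed in the other direction from LZ to PD (log2 ratio -0.87, against 0.33 with it). The antisense share of the other 8 members was 37.6% in SG, 51.8% in the LZ pair, 82.4% in PD and 69.9% in RS. The order of the stages by antisense share was therefore the same with and without IAPLTR2b.

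IAPLTR2_Mm and IAPLTR2a were also higher in antisense RPM in both LZ samples than in SG, but by 2.76-fold and 2.99-fold at the LZ mean, less than IAPLTR2b. IAPLTR2_Mm had 73.2 antisense RPM in SG, 170 and 234 in the LZ pair, 168 in PD and 23.2 in RS. IAPLTR2a had 61.5 antisense RPM in SG, 158 and 209 in the LZ pair, 187 in PD and 23.99 in RS. The PD value lay within the LZ pair for IAPLTR2a and just below it for IAPLTR2_Mm, and RS was 7.80-fold and 7.23-fold below PD. IAPLTR2a2_Mm was almost wholly antisense throughout, at 90.3 to 98.6% in the first set, with 49.5 antisense RPM in SG, 44.0 and 61.4 in the LZ pair, 67.3 in PD and 10.7 in RS.

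IAPLTR1_Mm and IAPLTR1a_Mm behaved differently: both were mainly sense and peaked in SG and LZ. IAPLTR1_Mm had 376 RPM in SG, 318 and 428 in the LZ pair, 62.0 in PD and 12.2 in RS, with an antisense share of 11.7 to 26.4%. Its SG value lay between the LZ replicates, and PD was 6.02-fold below the LZ mean. IAPLTR1a_Mm had 127 RPM in SG, 92.9 and 177 in the LZ pair, 39.4 in PD and 8.24 in RS, with an antisense share of 22.5 to 34.1%. As in IAPLTR1_Mm, the LZ replicates lay on either side of SG.

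IAPLTR3 had 9.91 RPM in SG, 18.7 and 28.6 in the LZ pair, 21.6 in PD and 7.97 in RS. IAPLTR4 was at 1.13 RPM or less in all 9 samples. The internal region IAPLTR4_I had 29.7 RPM in SG, 16.8 and 36.1 in the LZ pair, 15.7 in PD and 9.64 in RS, and it was the member with the most reads of 11-18 nt, at 75.9 to 403 RPM over all samples. Those short reads lie outside the piRNA lengths and are not counted above.

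**Figure D1:**
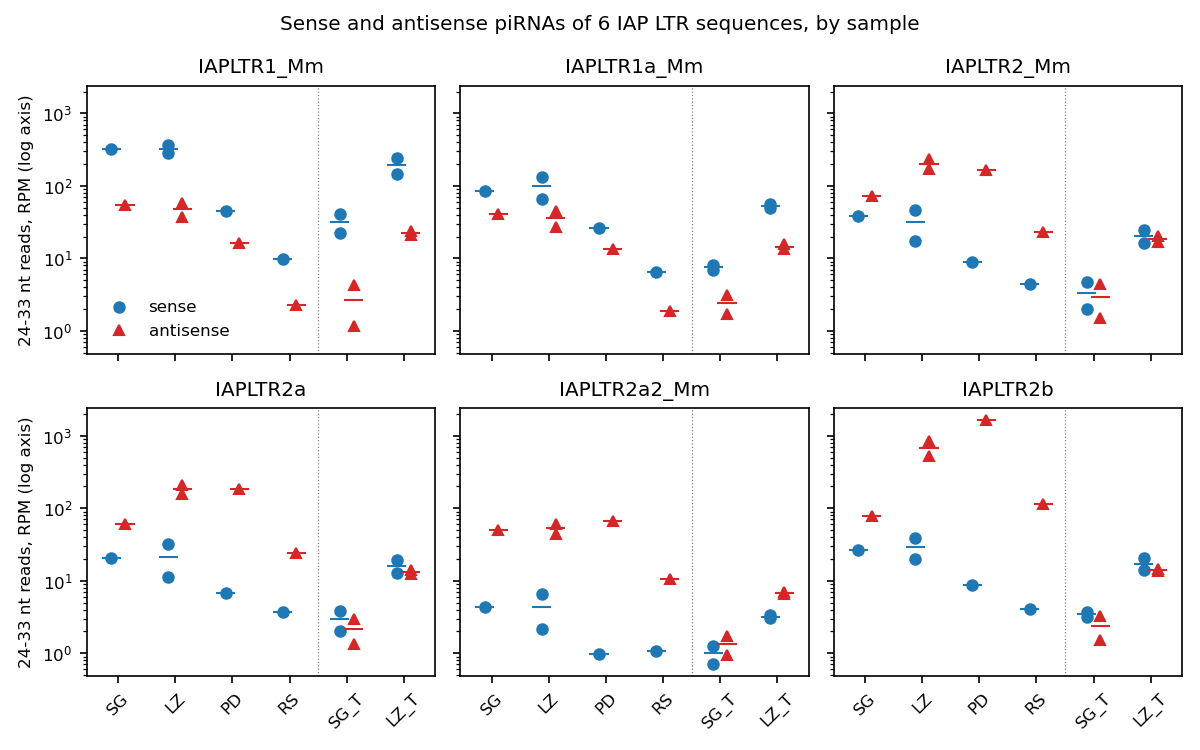
Sense and antisense RPM of 24-33 nt reads (log axis) of 6 IAP LTRs in each biological sample, 1 panel per LTR; samples on the x axis, 1 point per sample and strand. Antisense RPM of IAPLTR2b is 79.3 in SG and 1633 in PD, sense RPM of IAPLTR1_Mm is 45.6 in PD, and both SG_T samples lie below SG in all 6 panels.

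To ask how alike the members were, log2(RPM + 1) was compared across the 9 biological samples. These correlations are a description: the samples share sets, depth and stages. Pearson's r was 0.965 for IAPLTR1_Mm with IAPLTR1a_Mm, and it ran from 0.918 to 0.995 in the 6 pairs among the 4 LTR2 members. In the 8 pairs of an LTR1 with an LTR2 member it ran from 0.374 (IAPLTR1_Mm with IAPLTR2b) to 0.8225 (IAPLTR1a_Mm with IAPLTR2_Mm). Among 65 other sequences with at least 10 RPM on average, the closest to the summed members were IAPEY5_I (r = 0.921), IAPEz-int (0.918) and IAPA_MM (0.872), which are IAP sequences by their names. IAPEz-int, the internal coding part of IAP elements that such LTRs flank, had 6982 RPM in SG, 4996 and 9694 in the LZ pair, 3099 in PD and 1161 in RS. Its antisense share was 27.6% in SG, 48.7% and 38.2% in the LZ pair, 83.8% in PD and 83.6% in RS. It was therefore lower in PD than in LZ, as IAPLTR1_Mm was, while its antisense share differed in the same direction as that of the members.

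Read length also differed by stage. Of the antisense IAPLTR2b reads of 24-33 nt, 55.1% were 28-33 nt long in SG, 44.4% and 45.2% in the LZ pair, 69.7% in PD and 83.5% in RS. For the summed antisense reads of the 9 members the shares were 53.0% in SG, 46.4% and 49.2% in the LZ pair, 70.7% in PD and 81.3% in RS. The longer class was thus the larger one in SG, PD and RS and the smaller one in both LZ samples. Reads of 24-33 nt of any origin made up 29.8% of all reads in SG, 45.2% and 39.3% in the LZ pair, 84.5% in PD and 83.1% in RS, and the part of this shift in the values above was not tested.

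The IAPLTR1 stretch gave the 5′ ends of single reads. It held 278 RPM in SG, 839 and 649 in the LZ pair, 1534 in PD and 121 in RS. The antisense share of these reads was 51.2% in SG, 89.3% and 69.8% in the LZ pair, 97.1% in PD and 84.4% in RS. Antisense reads of the stretch were piled up on 1 position. The 5′ end at position 137 held 43.1% of antisense reads in SG, 82.4% and 63.0% in the LZ pair, 86.5% in PD and 74.8% in RS. In RPM this end was at 61.2 in SG, 618 and 285 in the LZ pair, 1289 in PD and 76.5 in RS. These values run side by side with the antisense RPM of IAPLTR2b given above, and not with those of IAPLTR1_Mm (54.8 in SG, 37.2 and 58.8 in the LZ pair, 16.4 in PD). Reads with up to 2 mismatches can belong to other LTRs than IAPLTR1, and the tables do not give the reads behind each row. Sense reads were spread more widely: the end at position 16 was the most frequent in SG, both LZ samples and RS, with 17.5 to 32.1% of sense reads, and in PD it was the end at position 68 with 32.9%.

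**Figure D2:**
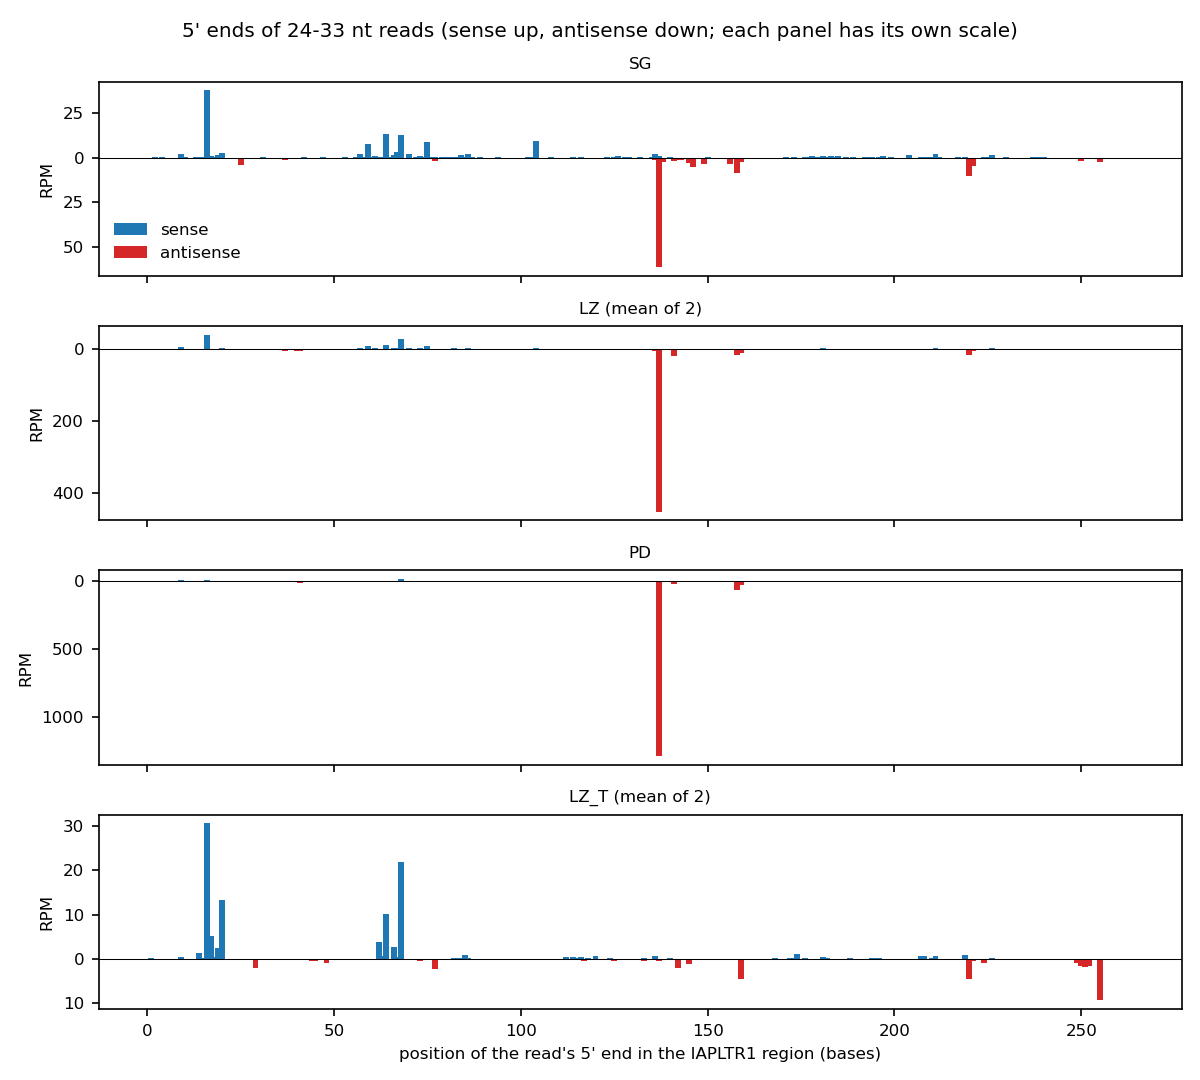
RPM of 24-33 nt reads by the position of their 5′ end in the 263-base IAPLTR1 stretch, in SG, LZ (mean of 2), PD and LZ_T (mean of 2); sense above and antisense below the axis, each panel on its own scale. The antisense end at position 137 reaches 1289 RPM in PD and 61.2 RPM in SG and is at 0.643 RPM or less in the LZ_T samples.

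The antisense sequences printed above were followed as 1 group, the reads that share the first 24 bases of antisense 1. They were at 18.1 RPM in SG, 534 and 237 in the LZ pair, 1188 in PD and 72.2 in RS. Both LZ samples lay at least an order of magnitude above SG. Their most frequent length was 28 nt in SG and both LZ samples but 31 nt in PD and RS, although the 5′ end was the same. The share of 28-33 nt was 46.1% in SG (95% Wilson interval 39.9 to 52.4%), 45.7% and 42.6% in the LZ pair, 71.6% in PD and 89.8% in RS. In the second set, 1 read of this group was found in LZ_T replicate 1 and none in the other 3 samples, where 3 reads would be 0.279 to 1.66 RPM.

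**Figure D3:**
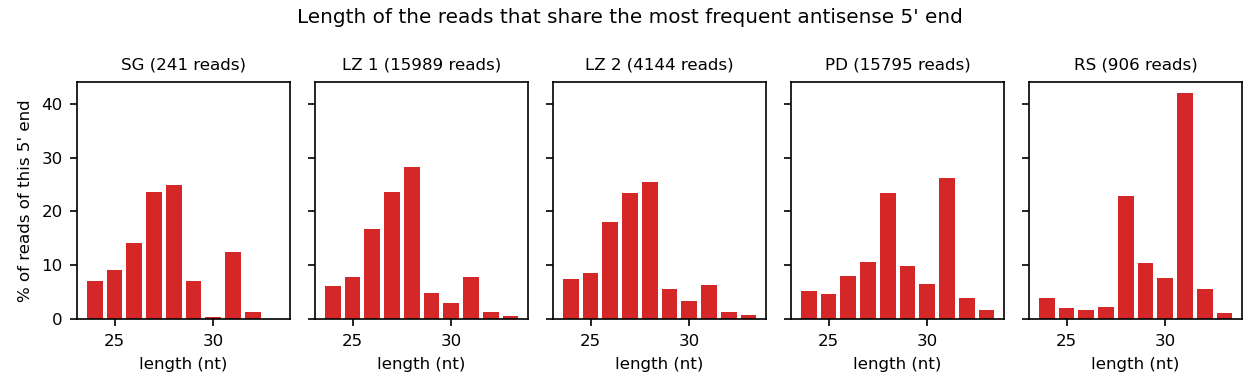
Percent of reads at each length (24-33 nt) among the reads that share the first 24 bases of the most frequent antisense sequence. There is 1 panel of bars per library, for SG, LZ replicates 1 and 2, PD and RS, so bar heights do not compare abundance between libraries. The most frequent length is 28 nt in SG and LZ and 31 nt in PD and RS.

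The reads were also compared with annotated transcripts. Each of the 3 antisense sequences matched 1 GENCODE vM21 transcript exactly in the same orientation, Gm49794-201, and 3 transcripts in the opposite one. Sense 1 matched 1 transcript in the same orientation and 2 in the opposite one, sense 2 matched 41 and 30, and sense 3 matched 1 and 0. Gm49794-201 is a long intergenic noncoding RNA of 13039 nt with 2 exons, from the gene Gm49794 on the plus strand at chr17:27354111-27367492 (GRCm38). Antisense 1 lies in exon 1, at chr17:27354870-27354897. Around it, a span of 380 bases of exon 1 (chr17:27354620-27354999) runs between the outermost 12-base words shared with the IAPLTR1 stretch in the antisense direction. This span, called the segment below, was not aligned to the stretch and is longer than it, so not all of its bases match. This look at a transcript was added after the sequences were seen, and other genomic copies were not tested.

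Reads of piRNA length matched Gm49794-201 outside the segment as well as inside it, and their spread along the transcript was not tested. Exact-match reads of 24-33 nt outside it were at 452 RPM in SG, 7486 and 5140 in the LZ pair, 12411 in PD and 6443 in RS. Inside the segment they were at 33.6 RPM in SG, 591 and 342 in the LZ pair, 1238 in PD and 115 in RS. The segment held 6.93% of the transcript's reads in SG, 7.32% and 6.24% in the LZ pair and 9.07% in PD, but 1.76% in RS. Among 4558 5′-end sites of the transcript, the site of the antisense sequences was the one ranked 3 by mean RPM, with 872 RPM in PD against 47.0 RPM in RS. The sites ranked 1 and 4, both outside the segment, were likewise lower in RS, at 758 RPM (1523 RPM in PD) and 161 RPM (557 RPM in PD). The one ranked 2, also outside it, was higher in RS, at 1324 RPM against 983 RPM. In the second set, reads outside the segment were at 20.6 and 8.84 RPM in SG_T and at 75.0 and 68.9 RPM in LZ_T.

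Signs of the ping-pong cycle were then read from the stretch. U at position 1 was found in 86.0% of sense reads in SG, 85.7% and 87.3% in the LZ pair, 76.0% in PD and 65.8% in RS. Among antisense reads it was found in 78.5% in SG, 92.7% and 84.4% in the LZ pair, 95.1% in PD and 91.7% in RS. A at position 10 was carried by 38.8% of sense reads in SG, 28.7% and 43.1% in the LZ pair, 50.8% in PD and 66.2% in RS. Among antisense reads it was carried by 24.5% in SG, 5.21% and 15.5% in the LZ pair, 3.32% in PD and 14.04% in RS, so that the antisense reads of the first set were mainly U at position 1 without A at position 10.

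Pairs of sense and antisense reads with a 10-nt overlap of 5′ ends were counted against the mean of overlaps of 5-9 and 11-15 nt. The ratio was 8.02 in SG, 13.1 and 12.3 in the LZ pair, 47.6 in PD and 33.2 in RS. The PD and RS ratios rested on 1 antisense end: without the reads at position 137 they were 1.09 and 1.03, against 9.97 in SG and 3.30 and 12.1 in LZ. The sense partner of that end starts at position 128 and was rare, with 1.505 RPM for PD and 0.319 RPM for RS. LZ replicate 1 also had a ratio lower without that end, whereas SG and LZ replicate 2 changed little.

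Next, the stages of the second set were compared. The summed members were at 83.2 and 46.5 RPM in SG_T and at 469 and 327 RPM in LZ_T. Both LZ_T samples lay above both SG_T samples. A limma fit took in the 57 sequences that averaged 1 RPM or more, and 47.4% of them were higher in LZ_T and 0% lower at an adjusted p under 0.05 (27 and 0 sequences; 29 and 1 at an unadjusted p under 0.05). Of the 9 members, 6 averaged at least 1 RPM in both groups, and these 6 were higher in LZ_T. IAPLTR4_I passed the filter only through LZ_T (mean 3.295 RPM, against 0.740 RPM in SG_T), so that its higher value there was built into the choice, and IAPLTR3 and IAPLTR4 did not pass. The median log2 difference of all 57 sequences was 0.83. Other IAP sequences were higher too: 8 of 9 tested were called, with a median log2 difference of 1.89 against 2.35 in the members tested. Some of these others passed the filter only through LZ_T. The calls of members depended on the filter: with none, 1 member was called, IAPLTR2a2_Mm (limma adjusted p = 0.0473), and the other 6 tested had adjusted p of 0.0942 to 0.241.

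IAPLTR1_Mm was at 45.7 and 23.6 RPM in SG_T and at 270 and 167 RPM in LZ_T, a log2 difference of 2.65 ± 0.40 (SE; limma, Benjamini-Hochberg adjusted p = 0.000142). IAPLTR2_Mm was at 9.13 and 3.53 RPM in SG_T and at 44.7 and 32.995 RPM in LZ_T, a log2 difference of 2.54 ± 0.41 (limma adjusted p = 0.000202). IAPLTR2b was at 6.94 and 4.71 RPM in SG_T and at 34.9 and 27.7 RPM in LZ_T, a log2 difference of 2.25 ± 0.34 (limma adjusted p = 0.000146). In each of the 3 both LZ_T samples were above both SG_T samples. The values of SG_T replicate 2 rest on few reads: about 43 for IAPLTR1_Mm, 6 for IAPLTR2_Mm and 9 for IAPLTR2b. All 9 members summed had about 84 reads there. The other members that passed the filter, IAPLTR1a_Mm, IAPLTR2a, IAPLTR2a2_Mm and IAPLTR4_I, had log2 differences of 2.65, 2.35, 1.72 and 1.31. IAPLTR4_I was not past the threshold without LZ_T replicate 1 (limma adjusted p = 0.0924) or without SG_T replicate 2 (limma adjusted p = 0.0857). Values were log2(RPM + 1), a scale that understates the change of low values.

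Members were called higher on each strand as well. On sense RPM these were 5 members with a mean of at least 1 RPM in both groups (background 50% of 48 sequences). IAPLTR2a2_Mm and IAPLTR4_I were called too, but at means of 0.9925 and 0.680 sense RPM in SG_T they passed the filter only through LZ_T. On antisense RPM, 6 members were higher (background 50% of 38), each with a mean over 1 RPM in both groups. Their SG_T means still rest on few reads. In SG_T replicate 2, a sample of 1810805 reads, their antisense values ran from 0.935 RPM (IAPLTR2a2_Mm) to 1.735 RPM (IAPLTR1a_Mm). Among the other IAP sequences, 6 of 7 tested were called higher on sense RPM and 6 of 6 on antisense RPM. Some of these others passed the filter only through LZ_T. When 1 sample was left out, 5 to 7 members were called on sense RPM and 6 on antisense RPM. The antisense share of the summed members was 23.8% and 17.5% in SG_T and 20.4% and 26.0% in LZ_T, and the groups overlapped. The means, 20.7 ± 4.46% and 23.2 ± 3.97% (SD, n = 2 each), did not differ beyond this spread (two-sided exact permutation p = 0.667; 2 against 2 samples cannot go below 0.333). When antisense and sense RPM were set against each other in the fit itself, 0 members were called (limma; background 5.26% higher and 0% lower of 57 sequences).

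The difference was seen in RPM, whereas the members' part of all listed RPM overlapped between the groups. The members made up 2.22% and 1.66% of the RPM of all listed sequences in SG_T and 2.096% and 1.395% in LZ_T. With RPM rescaled to that total, 0 of 7 members were called by limma, and their log2 differences ran from -0.63 to 0.06. With 2 samples per group, this does not show that their part was unchanged.

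The change from SG to L/Z was also compared between the sets, in a limma fit over these 7 samples in which the lone SG library is assumed to vary like the others. The p-values rest on that assumption, since 1 library shows no spread. Of 8 tested members, 2 were called with a larger change in the second set over all reads (IAPLTR1_Mm and IAPLTR1a_Mm; background 7.46% of 134 sequences). On sense RPM 5 were called (background 14.3% of 98), and on antisense RPM 2 (background 7.84% of 102). With RPM rescaled to all listed sequences, 0 members were called on each of the 3 measures by limma, and leaving out 1 sample gave 0 to 4 sense and 0 to 2 antisense calls.

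LZ_T was also compared with LZ, the same stage in the other set. In the first fit over all reads of 24-33 nt, 92.6% of 135 sequences were lower in LZ_T and 2.22% higher (limma), with a median log2 difference of -2.88 over all. Of the 8 members that passed the filter, 7 were lower, a count near the background and no result about them. IAPLTR3 was among these 7 and passed the filter only through LZ.

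On the sense strand most members did not pass the threshold. IAPLTR1_Mm had 281 and 369 sense RPM in LZ and 246 and 146 in LZ_T, a log2 difference of -0.76 ± 0.46 (SE; limma adjusted p = 0.133). IAPLTR2b had 19.7 and 39.0 sense RPM in LZ and 20.5 and 13.9 in LZ_T, a log2 difference of -0.68 ± 0.48 (limma adjusted p = 0.190). The IAPLTR2b groups overlapped, and those of IAPLTR1_Mm did not. In the background, 82.7% of 104 sequences were lower on sense RPM and 3.85% higher, with a median of -2.86. IAPLTR4_I was lower (log2 difference -2.19). IAPLTR3 was called lower too (-3.84), but at a mean of 0.0425 sense RPM in LZ_T it passed the filter only through LZ. The 6 members that did not pass had log2 differences of -0.81 to -0.21 (limma adjusted p of 0.122 to 0.678), which does not show that they were alike in the sets. Without LZ replicate 1, 4 members were called, with IAPLTR1a_Mm (-1.32) and IAPLTR2a2_Mm (-0.85) added, and without LZ replicate 2 only IAPLTR3 was.

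On the antisense strand, 93.3% of 105 sequences were lower in LZ_T and 4.76% higher, with a median of -2.83, so that a lower value was the rule among listed sequences. IAPLTR2b had 841 and 530 antisense RPM in LZ and 14.4 and 13.8 in LZ_T, a log2 difference of -5.47 ± 0.38 (limma adjusted p = 1.67e-06). IAPLTR2a had 158 and 209 antisense RPM in LZ and 13.8 and 12.3 in LZ_T, a log2 difference of -3.70 ± 0.37 (limma adjusted p = 9.12e-06). IAPLTR2_Mm had 170 and 234 antisense RPM in LZ and 20.5 and 16.7 in LZ_T, a log2 difference of -3.36 ± 0.37 (limma adjusted p = 1.82e-05). In none of these LTR2 members did the groups overlap. IAPLTR1_Mm differed less, with 37.2 and 58.8 antisense RPM in LZ and 24.1 and 20.7 in LZ_T (log2 difference -1.03 ± 0.39, limma adjusted p = 0.0250). The 6 LTR1 and LTR2 members were called lower, a count near the background. IAPLTR3 and IAPLTR4_I were called too, but at means of 0.0600 and 0.970 antisense RPM in LZ_T they passed the filter only through LZ. Without either LZ_T replicate, the 2 LTR1 members were no longer called on antisense RPM. The internal sequence IAPEz-int had a log2 difference of -0.87 ± 0.50 on sense RPM (limma adjusted p = 0.119) and of -2.23 ± 0.38 on antisense RPM (limma adjusted p = 0.000342). IAPA_MM was at 0.11 on sense and -2.83 on antisense RPM, and IAPLTR3-int at -0.75 and -3.40. Of all IAP sequences outside the members, 8 of 11 tested were called lower on sense RPM and 13 of 13 on antisense RPM. Some of these others, on either strand, had means under 1 RPM in LZ_T and passed the filter only through LZ, so that their lower value was built into the choice.

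To test whether the strands differed from each other, the antisense over sense ratio was itself fitted, a test added after the values were seen. Of 135 sequences, 30.4% had a lower ratio in LZ_T and 26.7% a higher one, with a median log2 difference of -0.13 (limma). IAPLTR2b had the lowest of the members' values at -4.79 ± 0.50 (SE; limma adjusted p = 0.000162), followed by IAPLTR2a at -3.44 ± 0.39 (adjusted p = 0.000187). IAPLTR2_Mm was at -2.88 ± 0.37 (limma adjusted p = 0.000271) and IAPLTR2a2_Mm at -2.56 ± 0.35 (adjusted p = 0.000311). These 4 LTR2 members were called, whereas IAPLTR1_Mm (-0.27 ± 0.32, limma adjusted p = 0.489) and IAPLTR1a_Mm (-0.40 ± 0.30, adjusted p = 0.281) were not. IAPLTR3 (0.62 ± 0.37) and IAPLTR4_I (-0.46 ± 0.47) were not called either. A lower antisense than sense value was not particular to LTR2, since IAPEz-int, IAPA_MM and IAPLTR3-int had it above. The 4 stayed past the threshold under all 7 alternatives run, with limma adjusted p up to 0.0283. The antisense share of the summed members was 69.6 ± 8.65% in LZ and 23.2 ± 3.97% in LZ_T (SD, n = 2 each), a difference of -46.4 points at the smallest p that this exact permutation test allows (0.333).

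Over both strands together, IAPLTR1_Mm was not called in LZ_T against LZ (log2 difference -0.80 ± 0.44, limma adjusted p = 0.0769), and IAPLTR1a_Mm was near the threshold (-0.93 ± 0.44, limma adjusted p = 0.0399). The call of IAPLTR1a_Mm was lost in 11 of 18 alternatives, among them without LZ_T replicate 1, LZ_T replicate 2 or LZ replicate 2. With RPM rescaled to all reads of 24-33 nt, both turned to the other direction, at 0.41 and 0.25, without passing the threshold. IAPLTR3 was at 18.7 and 28.6 RPM in LZ, at 0.190 and 0.0150 RPM in LZ_T, and listed at 0 in both SG_T samples. In this fit limma used 1 shared spread (0.444 on the log2 scale) for all sequences, and for IAPLTR2b the adjusted p over 18 alternatives ran from 4.26e-23 to 0.00735. The share of 24-33 nt reads was 23.5% and 16.7% in LZ_T against 45.2% and 39.3% in LZ, and somatic miR-126a-3p was at 868 and 1229 RPM against 58.4 and 136 RPM. The part of these in the results was not tested.

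**Figure D4:**
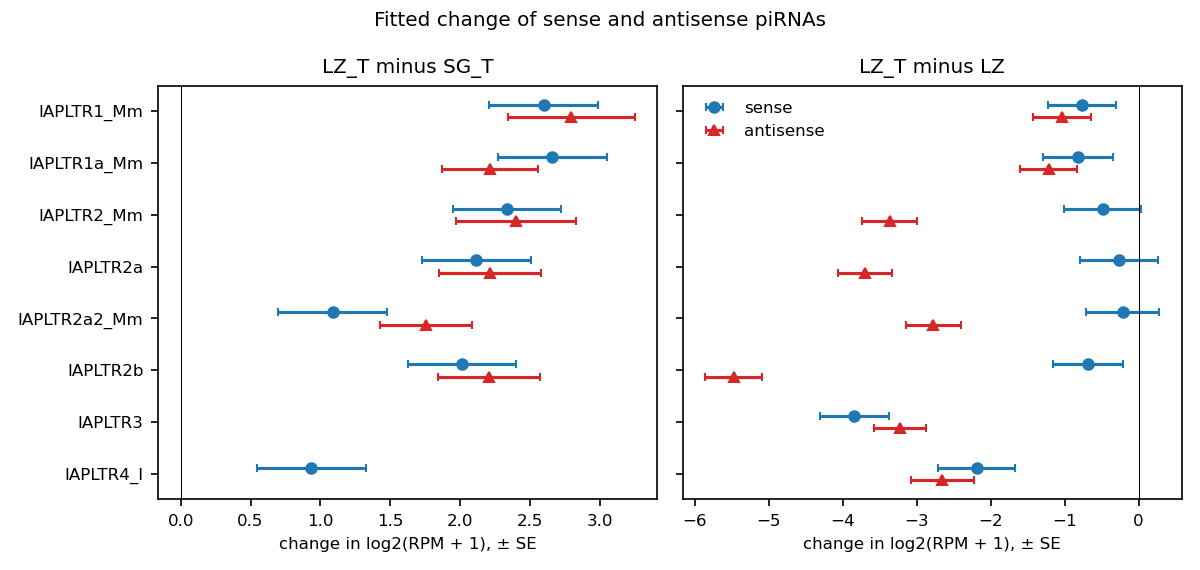
Log2 differences of log2(RPM + 1) from limma for each IAP LTR that passed the filter, on sense and antisense RPM, for LZ_T against SG_T and LZ_T against LZ; bars are standard errors. In LZ_T against LZ, antisense values of the LTR2 members run from -2.77 to -5.47, and their sense values from -0.21 to -0.68.

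The reads of the IAPLTR1 stretch differed between the sets in kind as well. They were at 37.2 and 16.02 RPM in SG_T and at 189 and 118 RPM in LZ_T, with an antisense share of 25% and 20.7% in SG_T and 28.7% and 32.6% in LZ_T. The antisense end at position 137 was not found in SG_T and was at 0.643 and 0.186 RPM in LZ_T. The most frequent antisense end was at position 255 in both LZ_T samples and in SG_T replicate 1. The sense end at position 16 stayed the most frequent in all 4 samples of the second set, at 39.7 and 21.6 RPM in LZ_T against 15.6 and 63.0 RPM in LZ. Sense reads of LZ and LZ_T thus shared their main 5′ end, and antisense reads did not.

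Among antisense reads, U at position 1 was found in 40.5% of both LZ_T samples, a difference of -47.98 points from the LZ mean. A at position 10 was found in 55.0% and 64.8% of them, 49.6 points above the LZ mean. For both differences the samples did not overlap, and the two-sided exact permutation p was 0.333, the smallest that 2 against 2 samples allow. The end at position 137, whose printed sequences carry U at both positions, held 82.4% and 63.0% of antisense reads in the LZ pair. Both differences include this end and were not computed without it. The SG_T samples had U at position 1 in 29.0% and 66.7% of antisense reads, and A at position 10 in 60.9% and 50%, but SG_T replicate 2 rests on 6 antisense reads. The 10-nt overlap ratio was 5.32 and 5.78 in LZ_T and 7.35 in SG_T replicate 1, and leaving out position 137 changed none of these 3 by more than 0.01. Apart from position 137, an excess of 10-nt overlaps was therefore seen in SG, LZ (3.30 and 12.1), LZ_T and SG_T replicate 1. It was not seen in PD (1.09) or RS (1.03). The ratio of SG_T replicate 1 rests on 69 antisense reads, and no interval was computed for any of these ratios.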

How the data were processed

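The authors trimmed adapters with cutadapt and deposited, per library, a list of distinct sequences with raw read counts and a table of RPM by strand and length. For the tables the authors removed abundant noncoding RNAs and miRNAs, mapped reads to consensus sequences with mismatches allowed, and divided reads with several matches, so no count test was used. Between 6 and 8 rows per table that are no retrotransposons were left out. RPM of technical replicates were averaged, and counts were summed. Depth sets the precision: 3 reads are 0.100 to 1.66 RPM, and intervals cover counting error only.

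The members and lists were chosen with earlier results of these data known. The limma package (3.58.1, in R 4.3.3) was run on log2(RPM + 1) of sequences with a mean of at least 1 RPM, with Benjamini-Hochberg adjustment over all tested and a threshold of 0.05. The fit and the read matching were tested on simulated data. Far fewer sequences changed in the simulated fit than in LZ_T against LZ, so it does not cover that case. All members are named; the 3 other sequences most like their sum were named by Pearson's r. Alternatives were pseudocounts, filters, rescaling, single technical replicates, a variance trend, a replicate block and leaving out each sample. Same-numbered samples did not deviate together (r = 0.099 and -0.218 across 57 and 135 sequences), so the numbers were not taken as pairs. A consensus stands for many copies, so no genome position is given for a member. Of 6 marker miRNAs, the 3 that matched the RefSeq table (GRCm38.p6) were used.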

Additional observations from a re-analysis of the deposited data

Results flagged for a closer look

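For some members, the fitted change from SG to L/Z differed between the sets past the threshold, in a test that rests on 1 SG library and did not hold under every scaling. The term that compares LZ_T minus SG_T with LZ minus SG was fitted with limma over the 7 samples of these groups, with the lone SG library assumed, not shown, to vary like the others. For all 24-33 nt reads, 7.46% of 134 sequences had a larger change in the second set and 11.9% a smaller one. IAPLTR1_Mm changed by -0.03 in the first set and 2.65 in the second (log2), a difference of 2.68 ± 0.66 (SE; limma adjusted p = 0.00723), and IAPLTR1a_Mm gave a difference of 2.64 ± 0.63 (limma adjusted p = 0.00670). On sense RPM (14.3% larger and 11.2% smaller of 98 sequences) the differences were 2.59 for IAPLTR1_Mm, 2.54 for IAPLTR1a_Mm, 2.76 for IAPLTR2_Mm, 2.21 for IAPLTR2a and 1.95 for IAPLTR2b. On antisense RPM (7.84% larger and 11.8% smaller of 102 sequences) they were 3.02 for IAPLTR1_Mm and 2.44 for IAPLTR1a_Mm. IAPLTR2b over both strands changed by 2.71 in the first set and 2.25 in the second, and the difference did not pass (-0.46, limma adjusted p = 0.697).

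Of these 9 differences, 0 remained with RPM rescaled to all listed sequences, and 7 then had the opposite sign. Sense calls were lost most often when 1 sample was left out: 1 of 5 was called without LZ replicate 1, 0 without SG_T replicate 2 and 1 without LZ_T replicate 1.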

How the results depend on the processing

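Most results kept their direction and side of the threshold. For LZ_T against SG_T, members called higher on all reads were 1 of 7 with no filter on low values. With RPM rescaled to all listed sequences they were 0 on all reads, sense and antisense alike. Rescaling reversed the log2 differences of IAPLTR1_Mm (-0.15), IAPLTR2_Mm (-0.065), IAPLTR2a (-0.24), IAPLTR2a2_Mm (-0.63), IAPLTR2b (-0.37) and IAPLTR4_I (-0.42). On sense RPM these were -0.20, -0.089, -0.26, -0.68, -0.42 and -0.68, and on antisense RPM -0.16 for IAPLTR1a_Mm and -0.036, -0.19, -0.36 and -0.24 for the LTR2 members in the same order. In LZ_T against LZ, rescaling to 24-33 nt reads gave 0.41 for IAPLTR1_Mm and 0.25 for IAPLTR1a_Mm, and rescaling to listed sequences gave sense values of 0.051 for IAPLTR2a and 0.027 for IAPLTR2a2_Mm. When 1 sample was left out, members lower on sense RPM in LZ_T against LZ were 1 to 4; the sense differences then ran from -1.18 to 0.21 for IAPLTR2_Mm, -0.98 to 0.44 for IAPLTR2a and -0.85 to 0.42 for IAPLTR2a2_Mm, with the positive values without LZ replicate 2 and, for IAPLTR2a, without LZ_T replicate 2 (0.022). For the difference between sets, rescaling to listed sequences left 0 called on each measure, with -0.31 and -0.14 for the LTR1 members, sense values of -0.39, -0.17, -0.34 and -0.65 (IAPLTR1_Mm, IAPLTR1a_Mm, IAPLTR2a, IAPLTR2b) and antisense -0.12 for IAPLTR1a_Mm. Rescaling to 24-33 nt reads gave 5 called, and leaving out 1 sample gave 0 to 4 sense and 0 to 2 antisense calls.

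The antisense share of LZ_T against SG_T turned to -0.584 points with technical replicate 1 alone and ran from -0.634 to 5.67 when 1 sample was left out. LZ over SG had a log2 ratio of 0.98, and 1.21 rescaled to listed sequences, 0.49 rescaled to 24-33 nt reads and 0.42 without IAPLTR2b. That of PD to LZ was 0.33, and 1.21, -0.68 and -0.87 in the same order. That of RS to PD was -3.31, and -2.08 rescaled to listed sequences and -2.46 without IAPLTR2b. Without IAPLTR2b the antisense shares were 37.6%, 51.8%, 82.4% and 69.9% in SG, LZ, PD and RS.

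In the IAPLTR1 stretch, LZ_T against SG_T reversed as follows. The antisense share was -4.12 points with technical replicate 1 alone. The sense share with U at position 1 was 18.2 with technical replicate 1 alone and ran from -4.42 to 1.38 when 1 sample was left out. The antisense one was 16.7 with exact matches and ran from -26.1 to 11.5. For A at position 10, sense was 1.18 with exact matches and ran from -8.62 to 2.98, and antisense was -6.80 with exact matches, -5.05 with distinct sequences and ran from -0.952 to 9.92. The overlap ratio of LZ was 14.9 with exact matches, 5.49 with distinct sequences and 7.72 without the top end, and that of LZ_T was 4.01 with exact matches and 6.70 with technical replicate 1 alone. Distinct sequences could not be run for RPM. The cause of these changes was not tested.

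With the replicate number as a block, members called were 7 for LZ_T against SG_T and 6 for LZ_T against LZ, 7 and 2 on sense, 6 and 8 on antisense and 0 and 4 on the strand ratio. The numbers share only a number. A crossed block, added after seeing the data, called 8 lower in LZ_T against LZ.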

Other observations

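Reads of 11-18 nt of the members did not follow the piRNA lengths. Their sum was 542 RPM in SG, 559 and 696 in the LZ pair, 249 in PD and 261 in RS, and it was 457 and 695 RPM in SG_T and 468 and 481 RPM in LZ_T. SG_T and LZ_T overlapped in this class, whereas at 24-33 nt they did not. IAPLTR3, listed at 0 in SG_T at 24-33 nt, had 61.3 and 141 RPM at 11-18 nt there, against 37.9 RPM in SG.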
